A study of Homo sapiens with 11 samples.

Results

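Naive human embryonic stem cells that received a short hairpin RNA (shRNA) against pCCNE1, a form of CCNE1 (the gene of cyclin E1) made by primate-specific splicing, were compared with the same culture after a control shRNA. The 2 libraries were chosen by their labels alone, out of 11 in the series. Both came from H7, an established embryonic stem cell line, held in the naive medium 5iLA and collected 5 days after lentiviral infection. One library had the pCCNE1 shRNA and the other the control shRNA. Beside them stand the libraries of the pCCNE1 shRNA, the uCCNE1 shRNA and the control shRNA in primed H1 cells and in H1 cells held in the naive medium t2iGo, the uCCNE1 shRNA in 5iLA H7, and untreated H7 cells in 5iLA and in the primed state. H1 is a second embryonic stem cell line, so line and medium cannot be told apart between the 5iLA pair and the pairs of the other cultures. With 1 library per group, the differences of the pair have no replicate check and no p-value, and "higher" and "lower" below describe these 2 libraries.

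Cyclin E binds and activates the kinase CDK2, and the complex drives cells from G1 into DNA replication. Pluripotent stem cells carry much cyclin E and have a short G1. Naive cells resemble the epiblast of the blastocyst before implantation and primed cells the epiblast after it. The 5iLA medium holds naive human cells with kinase inhibitors, among them one of MEK, together with LIF and activin A, and such cells carry RNA of KLF17, DPPA3, DPPA5, SUSD2 and alkaline phosphatase genes that primed cells lack.

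The table gave 1 value per gene for 23287 genes, of which 12116 had a mean of at least 1 RPKM (reads per kilobase of transcript, scaled to library size) over the 9 shRNA libraries and were kept. The read total behind the pCCNE1 library was estimated at 13.2 M reads and that behind the control at 16.6 M (mega), so that 1 read on a transcript of 2 kilobases was worth 0.0380 and 0.0302 RPKM. Summed over all genes, RPKM came to 140408 in the pCCNE1 library and 224314 in the control. Over the 18763 entries with a protein-coding (NM) RefSeq identifier the sums were 112118 and 154942. Small RNA entries made up 16.1% of the summed RPKM in the pCCNE1 library and 27.5% in the control. These totals moved with the comparison, so each difference is given as deposited. Medians of gene lists are also given relative to the median of the pair or after scaling the 2 libraries to equal NM sums.

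On the log2(RPKM + 1) scale, the median difference between the pCCNE1 and the control library was −0.30 (quartiles −0.58 and −0.02). As deposited, 106 genes were higher by at least 1, or 0.875% of those kept, and 594 were lower by at least 1, or 4.9%. Relative to the median of the pair, the split turned to 268 higher (2.21%) and 204 lower (1.68%). After scaling to equal NM sums, 295 were higher (2.43%) and 174 lower (1.44%). Among the 11250 NM entries kept, 94 were higher (0.836%) and 494 lower (4.39%) as deposited. The difference also followed the level. Adding 1 RPKM holds rarely read genes near 0, but its part in the trend was not tested. Genes with a mean of 1 to 3 RPKM over the 2 libraries had a median of −0.23. Those of 10 to 30 RPKM had a median of −0.48 and those above 100 RPKM one of −0.61. After equal NM sums the same medians were 0.07, −0.04 and −0.15.

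**Figure D1:**
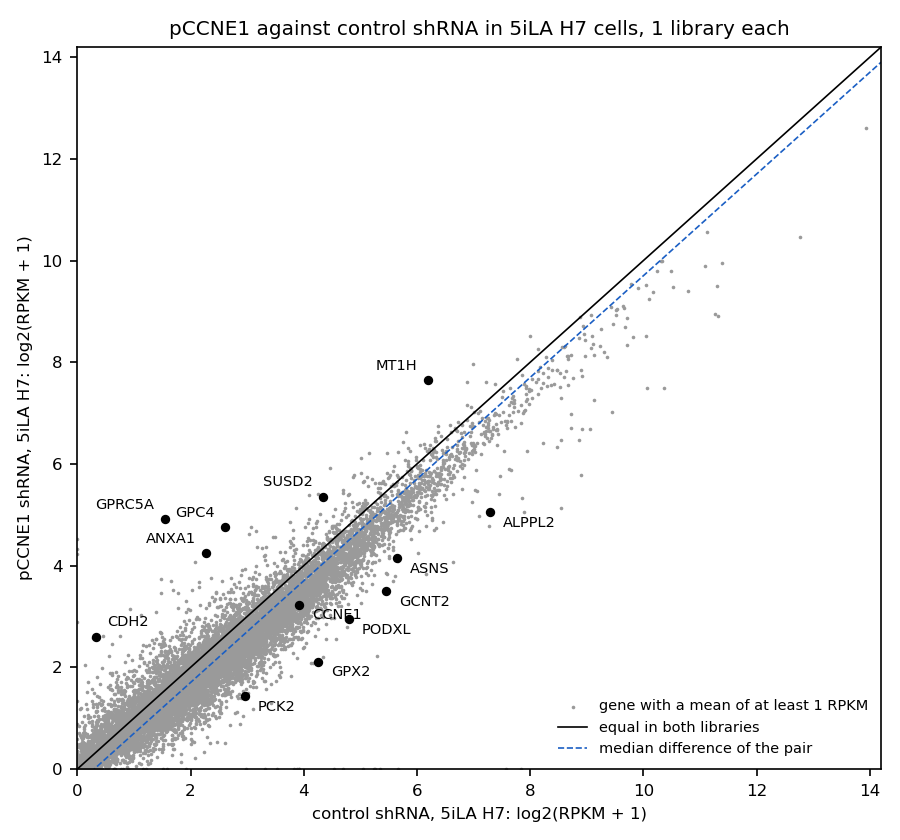
Levels in the pCCNE1 library (vertical axis) and the control library (horizontal axis) of 5iLA H7 cells, both as log2(RPKM + 1), for the 12116 genes kept. Most genes lie below the line of equal levels, near the dashed line at the median difference of −0.30, and GPRC5A and ALPPL2 are among those farthest from it.

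CCNE1 itself, on chromosome 19, had 8.38 RPKM in the pCCNE1 library, 5.27 RPKM in the uCCNE1 library and 14.1 RPKM in the control. It was below the control with both shRNAs, and for pCCNE1 the difference was −0.69 as deposited, −0.39 relative to the median of the pair and −0.26 after equal NM sums. The value covers the whole gene, so the primate-specific form was not measured apart from the other forms. CCNE2, the second cyclin E gene, had 0.525 RPKM in the pCCNE1 library and 0.347 RPKM in the control.

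The cells of both libraries carried the naive markers DPPA3 and DPPA5 at high levels and the primed markers THY1 and ZIC2 near 0. DPPA3, a maternal factor of early embryos, had 156 RPKM in the pCCNE1 library, 172 RPKM in the uCCNE1 library and 260 RPKM in the control. DPPA5 had 195, 156 and 273 RPKM in the same order. Of the primed markers, THY1 had 0.0314 RPKM in the pCCNE1 library and 0.0248 RPKM in the control, and ZIC2 had 0.224 and 0.0591 RPKM. OTX2 had 1.41 and 2.04 RPKM, and CD24 had 41.6 and 18.0 RPKM, so not all primed markers were near 0. In the control library of primed H1 cells THY1 had 94.5 RPKM and ZIC2 had 92.3 RPKM. KLF17 was read in both 5iLA libraries (1.23 RPKM with pCCNE1, 0.728 RPKM in the control) but did not pass the filter on the mean. The factors at the centre of the pluripotency network were lower as deposited, with differences of −0.71 for POU5F1, −0.57 for SOX2 and −0.79 for NANOG. After equal NM sums these were −0.25, −0.12 and −0.33. POU5F1 shares 63.4% of its 50-base stretches with other annotated genes, mostly pseudogene copies, and DPPA3 shares 45.9%, so both values are uncertain.

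The surface markers of naive cells went in different directions. ALPPL2, a placental-type alkaline phosphatase on the surface of naive cells, had 32.3 RPKM in the pCCNE1 library, 28.3 RPKM in the uCCNE1 library and 156 RPKM in the control. It was the lowest of all genes relative to the control under the naming rule (difference −2.24), and its near copy ALPP followed with 4.24 RPKM against 14.9 RPKM (−1.60). The tissue-nonspecific phosphatase ALPL had 8.65 RPKM with pCCNE1 and 21.0 RPKM in the control (−1.19). In untreated 5iLA H7 cells, whose table was scaled apart, ALPPL2 was listed at 27.1 RPKM, so the control shRNA library held the highest of the 4 values in 5iLA. ALPPL2 and ALPP share 29.3% of the 50-base stretches of ALPPL2. SUSD2, the surface protein by which naive cells are often sorted, went the other way, with 39.9 RPKM in the pCCNE1 library, 13.8 RPKM in the uCCNE1 library and 19.3 RPKM in the control (1.01). CD24, a surface antigen higher in primed cells, had 41.6 RPKM in the pCCNE1 library and 18.0 RPKM in the control (1.16).

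Of 29 naive pluripotency genes kept, 1 was higher by at least 1 and 6 were lower, beside 0.875% and 4.9% of all genes. The list's median was −0.41 beside −0.30 for all genes. The 6 were ALPPL2, ALPP, FGF4, ALPL, KHDC1L and NLRP7. KHDC1L shares 68.8% of its 50-base stretches with other annotated genes, so its value is uncertain. After equal NM sums 2 of the 6 stayed past −1, beside 1.44% of all genes. On that scale 2 members were higher by at least 1, SUSD2 (1.46) and TBX3 (1.02), beside 2.43% of all genes, and the list's median was 0.03. The naive factors TFCP2L1 (9.76 RPKM with pCCNE1, 8.17 RPKM in the control), KLF4 (18.3 and 20.2 RPKM) and TBX3 (3.91 and 2.07 RPKM) lay within 1 of the control as deposited. Of 33 primed genes kept, 3 were higher by at least 1, with CDH2 and CD24 among them, and 1 was lower (CRABP1, −1.11). Most of the other primed genes were read so little in 5iLA that a difference was not detectable at this depth.

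**Figure D2:**
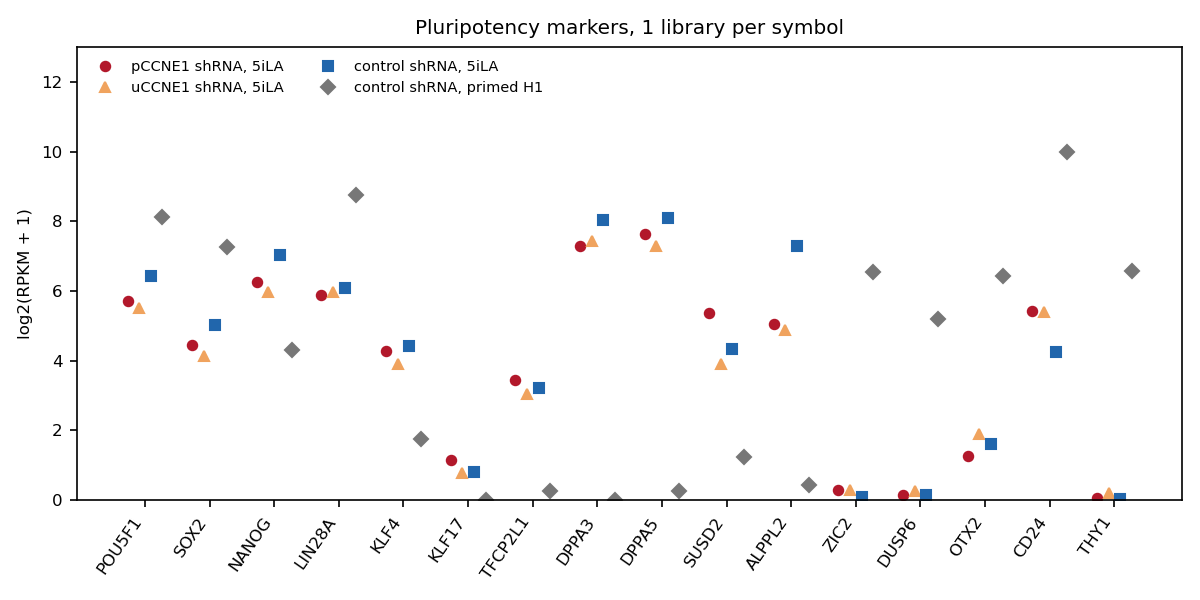
Levels of 16 pluripotency markers as log2(RPKM + 1), with 1 symbol per library, for the pCCNE1, uCCNE1 and control shRNA libraries in 5iLA H7 and the control shRNA library in primed H1. The 5iLA libraries hold DPPA3 and DPPA5 at high levels and THY1, DUSP6 and ZIC2 near 0, the reverse of primed H1, and ALPPL2 is highest in the 5iLA control.

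A second look at identity used sets defined in the untreated H7 libraries, which the comparison did not use. The 194 NM genes higher in untreated 5iLA than in untreated primed H7 cells by at least 2 on the log2 scale had a median of −0.04 in the pCCNE1 pair. The 60 genes higher in the primed state had a median of −0.07, and the other 10996 NM genes one of −0.30. As deposited, 19 of the naive-high genes were higher by at least 1 (9.79%, beside 0.875% of all genes) and 16 lower (8.25%, beside 4.9%). After equal NM sums they had a median of 0.33, with 33 higher (17.0%, beside 2.43% of all genes) and 3 lower (1.55%, beside 1.44%). The primed-high genes then had a median of −0.01, with 1 past 1 in each direction on either scale. Of the 194 naive-high genes 123 lay above the median of the pair, so the low values of ALPPL2, ALPL and FGF4 with pCCNE1 were not shared by most of them. The primed-high genes had a median level of 0.308 RPKM in the control, which leaves little room for a lower value.

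The gene with the largest positive difference was GPRC5A, an orphan receptor of the G protein-coupled class induced by retinoic acid, on chromosome 12. It had 29.1 RPKM in the pCCNE1 library, 19.3 RPKM in the uCCNE1 library and 1.92 RPKM in the control (3.37). MEIS2, a homeobox factor, had 5.01 RPKM with pCCNE1, 1.49 RPKM with uCCNE1 and 0.210 RPKM in the control (2.31). CDH2, which encodes N-cadherin, had 5.07, 1.52 and 0.263 RPKM in the same order (2.26). MEIS2 and CDH2 were close to absent from the control library, with about 7.98 and 18.8 estimated reads there, whereas GPRC5A had about 234. In untreated 5iLA H7 cells, whose table was scaled apart, CDH2 was listed at 16.3 RPKM, above the pCCNE1 library. MEIS2 (3.53 RPKM) and GPRC5A (4.93 RPKM) were listed there between the pCCNE1 and the control library.

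Several of the other leading genes encode signalling proteins. RSPO3, a secreted enhancer of WNT signalling, had 5.14 RPKM with pCCNE1 and 0.365 RPKM in the control (2.17). WLS, the carrier of WNT proteins to the cell surface, had 10.5 and 2.24 RPKM (1.83). FGFR1, a receptor of fibroblast growth factors, had 10 and 1.80 RPKM (1.97), and PGF, placental growth factor, had 7.19 and 1.18 RPKM (1.91). GPC4, a cell-surface heparan sulfate proteoglycan, had 25.9 RPKM with pCCNE1, 12.9 RPKM with uCCNE1 and 5.14 RPKM in the control (2.13). Some members of both the FGF and the WNT pathway were thus higher in 5iLA cells with the pCCNE1 shRNA than with the control shRNA. In untreated 5iLA H7 cells, whose table was scaled apart, FGFR1 (21.8 RPKM), WLS (65.1 RPKM) and GPC4 (33.8 RPKM) were listed above the pCCNE1 library. RSPO3 (0.280 RPKM) and PGF (0.930 RPKM) were listed there below the control shRNA library.

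The remaining leading genes were of mixed kinds. They included the serine protease TMPRSS11E (12.4 RPKM with pCCNE1 and 1.80 RPKM in the control), the prohormone convertase PCSK1 (15.8 and 3.21 RPKM), annexin A1 (ANXA1, 17.9 and 3.85 RPKM), the actin-binding protein PALLD (5.11 and 0.695 RPKM), the adenylate kinase AK4 (26.3 and 7.37 RPKM) and FAM151A. ANXA1 and WLS were higher still with uCCNE1, at 24.4 and 12.2 RPKM. FAM151A was at its control level there, with 12.1 RPKM with pCCNE1, 2.09 RPKM with uCCNE1 and 2.14 RPKM in the control. The uCCNE1 library has the same control, so the 2 comparisons are not independent. In untreated 5iLA H7 cells, whose table was scaled apart, ANXA1 (62.2 RPKM) and PALLD (13.9 RPKM) were listed above the pCCNE1 library. TMPRSS11E, PCSK1, AK4 and FAM151A were listed there below the control shRNA library.

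At the other end, GPX2, a glutathione peroxidase of epithelia, had 3.33 RPKM with pCCNE1, 7.89 RPKM with uCCNE1 and 18.1 RPKM in the control (−2.14). PODXL, the sialomucin that carries antigens used to recognise human pluripotent cells, had 6.69, 14.5 and 26.9 RPKM in the same order (−1.86). GCNT2, the enzyme that makes branched I antigen, had 10.3, 14.3 and 43.0 RPKM (−1.96). The neuropeptide gene GAL had 5.92 RPKM with pCCNE1 and 26.0 RPKM in the control (−1.97), and SLC7A3, a transporter of cationic amino acids, had 2.55 and 12.7 RPKM (−1.95). Each of these differences is several times the median of the pair.

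The other leading lower genes were FXYD6, PTRF, DDX25, PQLC3, TMEFF1, POLR3GL, SMN2, CETN3 and PLTP, with differences between −2.14 and −1.83. SMN2 shares 93.3% of its 50-base stretches, nearly all with its twin SMN1, and TMEFF1 shares 75.6% with the read-through gene MSANTD3-TMEFF1. How the authors' counting divided such reads is not given in the sources used here, so both values are uncertain. TMEFF1 was also the only one of the 15 lower genes whose uCCNE1 value (9.24 RPKM) lay above the control (6.31 RPKM, against 0.851 RPKM with pCCNE1).

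**Figure D3:**
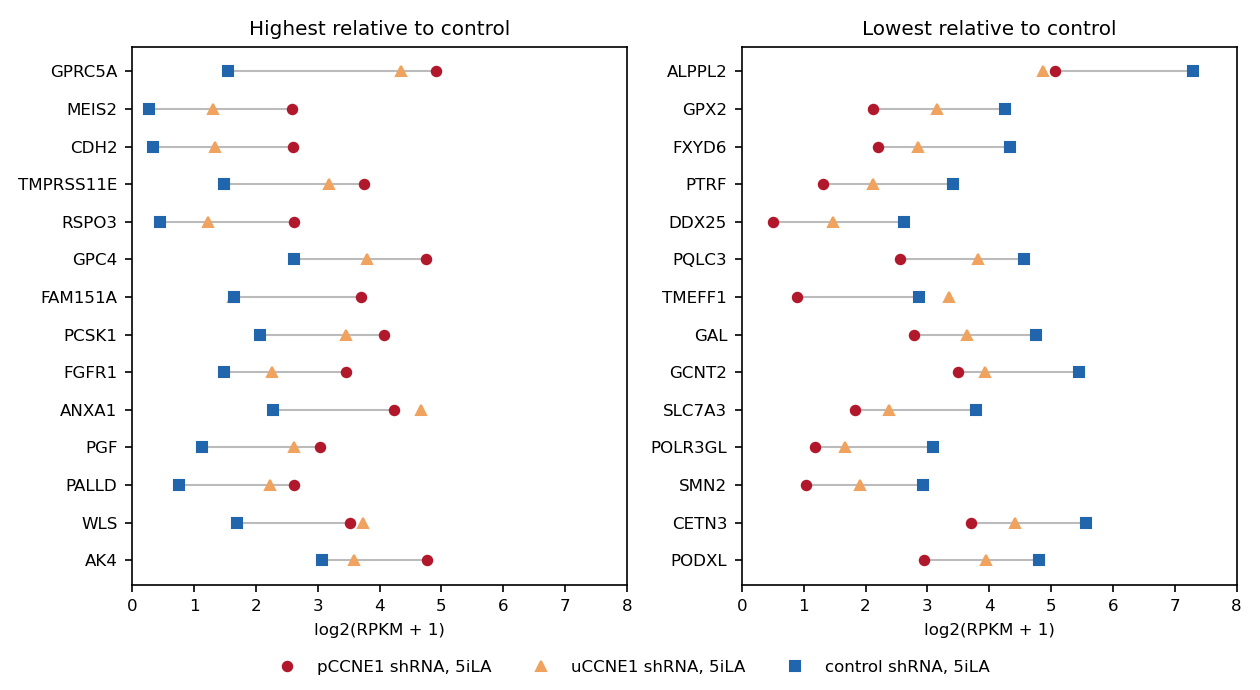
Levels as log2(RPKM + 1) of the 14 genes with the largest positive and the 14 with the largest negative differences, with 1 symbol each for the pCCNE1, uCCNE1 and control shRNA libraries in 5iLA H7. The uCCNE1 symbol of FAM151A lies on that of the control and the one of TMEFF1 beyond it.

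Genes of amino acid supply formed the lowest of the protein-coding lists. They are targets of ATF4, the transcription factor that is translated when amino acids run short or the endoplasmic reticulum is stressed, and they encode amino acid transporters, enzymes of serine and asparagine synthesis and tRNA synthetases. Of 35 members kept, 33 were lower in the pCCNE1 library as deposited (94.3%, beside 76.1% of all genes), and 31 lay below the median of the pair. The list's median was −0.87 as deposited and −0.43 after equal NM sums, beside 0.02 for all genes. As deposited, 6 were lower by at least 1, beside 4.9% of all genes, and none was higher.

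Among the transporters, SLC1A5, which takes up glutamine, had 13.2 RPKM in the pCCNE1 library, 13.1 RPKM in the uCCNE1 library and 43.6 RPKM in the control (−1.65). Among the enzymes, asparagine synthetase (ASNS) had 16.7, 20.6 and 49.3 RPKM in the same order (−1.51), and MTHFD2, of mitochondrial one-carbon metabolism, had 57.9, 60.02 and 130 RPKM (−1.16). The mitochondrial PEP carboxykinase PCK2 had 1.70, 1.63 and 6.78 RPKM (−1.53). Both shRNAs against CCNE1 thus stood well below the shared control for these genes. PSAT1 (24.6 RPKM with pCCNE1 and 49.5 RPKM in the control) and PHGDH (16.6 and 32.1 RPKM), which make serine, had differences of −0.98 and −0.91. ATF4 itself had 84.3 RPKM with pCCNE1 and 123 RPKM in the control (−0.54). The cystine transporter SLC7A11 was on the other side, with 8.11 and 5.74 RPKM (0.43).

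Promoter sequences of 2 members show the element by which ATF4 is known to bind. The motif TGATGNAA, the core of the composite C/EBP and ATF site, was searched on both strands of the 250 bases before each RefSeq start (GRCh38.p14). It was found in 3.14% of 35116 promoters and in 4 of the 30 members with a promoter (13.3%), namely AARS, ASNS, ATF3 and CHAC1. The sequences below run 5′ to 3′ on the gene's strand, with the match in capitals. That of ASNS is chr7:97872409-97872658 on the minus strand, with the match starting 68 bases before the start, and that of CHAC1 is chr15:40953221-40953470 on the plus strand, with the match in reverse orientation 209 bases before the start.
ASNS: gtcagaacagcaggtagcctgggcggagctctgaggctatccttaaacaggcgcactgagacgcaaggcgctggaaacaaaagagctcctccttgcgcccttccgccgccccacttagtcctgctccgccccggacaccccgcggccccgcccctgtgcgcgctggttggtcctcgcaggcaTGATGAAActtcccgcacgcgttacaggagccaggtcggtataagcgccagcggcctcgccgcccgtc
CHAC1: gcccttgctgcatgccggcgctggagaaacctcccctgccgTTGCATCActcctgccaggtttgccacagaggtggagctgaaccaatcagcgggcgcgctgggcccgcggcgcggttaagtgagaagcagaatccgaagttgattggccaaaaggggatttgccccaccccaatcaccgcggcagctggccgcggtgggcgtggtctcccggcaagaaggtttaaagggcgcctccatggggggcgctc
CHAC1, an enzyme that degrades glutathione, had 1.56 RPKM with pCCNE1 and 3.96 RPKM in the control (−0.95). SLC1A5, PCK2, DDIT4 and MTHFD2, all lower by at least 1, had no match in these windows.

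The same list in the other pCCNE1 pairs, each with its own control library, gave medians after equal NM sums of −0.60 in primed H1 and −0.18 in t2iGo H1, beside −0.43 in 5iLA H7. Below their own pair's median lay 31 of 35 members in 5iLA, 33 in primed and 25 in t2iGo. The members that led differed. In primed cells CHAC1 had 16.6 RPKM with pCCNE1 and 75.8 RPKM in the control, and SLC7A5 had 25.7 and 86.1 RPKM, against 19.7 and 28.8 RPKM in 5iLA. PCK2 was lower by at least 1 in all 3 cultures after equal NM sums, and no other NM gene was. It had 32.1 RPKM with pCCNE1 and 84.3 RPKM in the control of primed cells, and 1.41 and 5.04 RPKM in t2iGo. In the primed and t2iGo pairs the differences fell with the GC content of the transcripts (Spearman's rho −0.61 and −0.54 over 10918 genes), which the 5iLA pair did not show (0.06), and the part of GC content in the list's values was not tested.

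**Figure D4:**
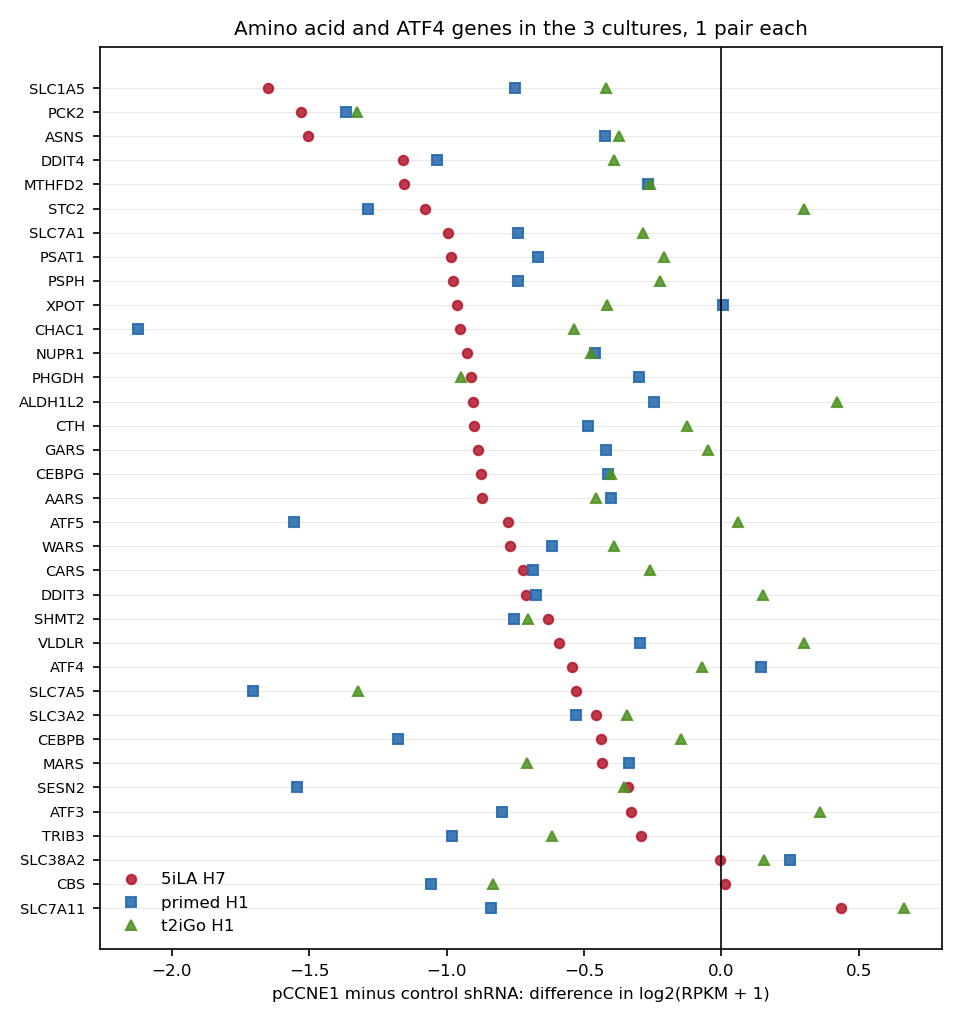
Differences in log2(RPKM + 1), pCCNE1 minus control shRNA, for the 35 amino acid and ATF4 genes kept, in 5iLA H7, primed H1 and t2iGo H1, each from 1 pair of libraries. All but 2 of the 5iLA symbols lie left of 0, and PCK2 lies beyond −1 in each culture.

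Metallothioneins, small cysteine-rich proteins that bind zinc and copper and whose genes lie together on chromosome 16, were higher in the pCCNE1 library. They were picked as a group after their values had been seen. MT1H had 199 RPKM with pCCNE1, 92.5 RPKM with uCCNE1 and 72.3 RPKM in the control (1.45), MT2A had 41.1, 11.1 and 16.2 RPKM (1.29), and MT1E had 73.2, 43.0 and 34.4 RPKM (1.07). Of its 10 members 7 were kept. All 7 lay above the median of the pair, with a median of 0.90 as deposited. By at least 1, 3 were higher, beside 0.875% of all genes. Scaled to equal NM sums, the median was 1.34. With uCCNE1 the median of the same genes was −0.22 as deposited, but 0.11 relative to the median of that pair and 0.33 after equal NM sums, so its sign follows the scaling. The pCCNE1 library stood above both other 5iLA shRNA libraries for MT1H, MT2A and MT1E. MT1X shares 45.1% of its 50-base stretches with other annotated genes and MT1H 20.4%, so the division among members is uncertain.

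The promoters of MT1H and MT2A are printed because metal response elements, bound by MTF1, are known to control these genes. The core TGCACNC or TGCGCNC was searched on both strands and is in capitals. MT1H is chr16:56669564-56669813 and MT2A is chr16:56608334-56608583, both on the plus strand of GRCh38.p14 and both the 250 bases before the start.
MT1H: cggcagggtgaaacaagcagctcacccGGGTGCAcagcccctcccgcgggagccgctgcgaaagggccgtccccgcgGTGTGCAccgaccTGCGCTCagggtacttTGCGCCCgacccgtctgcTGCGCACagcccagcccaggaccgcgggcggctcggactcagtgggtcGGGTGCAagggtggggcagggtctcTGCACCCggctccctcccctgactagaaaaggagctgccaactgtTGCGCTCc
MT2A: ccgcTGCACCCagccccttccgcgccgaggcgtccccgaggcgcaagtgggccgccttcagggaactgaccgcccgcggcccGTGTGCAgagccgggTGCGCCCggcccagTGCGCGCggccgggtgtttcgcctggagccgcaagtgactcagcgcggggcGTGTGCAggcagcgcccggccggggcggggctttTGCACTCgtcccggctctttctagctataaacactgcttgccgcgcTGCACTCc
MT1H held 8 matches and MT2A 7, and MT1X, the third member with a promoter in the RefSeq table, held 4. The core occurred at least once in 24.8% of all promoters and at least 2 times in 6.48%.

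Trophoblast markers, genes of the placental lineage that naive cells can enter, had the highest median after the metallothioneins. Of 25 members 11 were kept, with a median of 0.72 as deposited and 1.17 after equal NM sums. PGF, KRT19 (10.6 RPKM with pCCNE1 and 3.08 RPKM in the control), HAND1 (2.72 and 0.495 RPKM) and KRT8 (19.6 and 8.04 RPKM) were higher by at least 1, and 1 member was lower. The shares of all genes were 0.875% higher and 4.9% lower. In untreated 5iLA H7 cells, whose table was scaled apart, KRT19 (28.7 RPKM) and HAND1 (4.13 RPKM) were listed above the pCCNE1 library, and PGF below the control. The defining factors were read little, as GATA3 had 1.35 and 0.743 RPKM, GATA2 had 2.18 and 0.741 RPKM, CDX2 had 0.320 and 0.0507 RPKM and ELF5 had 0.0375 and 0.0297 RPKM. The summed RPKM of the 11 genes was 230.5 with pCCNE1 and 151 in the control, and that of all 25 was 242 and 157. In bulk RNA, a larger share of cells of a type and more RNA per cell cannot be told apart. With uCCNE1 the median of the list was 0.87 as deposited and 1.27 after equal NM sums.

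Fibroblast markers were included because naive cells are commonly kept on feeder cells. Of 29 members 26 were kept, and 25 lay above the median of the pair, beside 6058 of all 12116 genes. The list's median was 0.24 as deposited and 0.39 after equal NM sums. Kept genes with a mean under 1 RPKM over the 2 libraries had a median of −0.03, so little-read members tend to lie above the pair's median. COL3A1 (2.52 RPKM with pCCNE1 and 0.269 RPKM in the control), COL1A2 (7.49 and 2.77 RPKM), ACTA2 (1.31 and 0.0453 RPKM) and IGFBP7 (1.43 and 0.117 RPKM) were higher by at least 1. The share of all genes was 0.875%. In untreated 5iLA H7 cells, whose table was scaled apart, COL3A1 (4.44 RPKM), COL1A2 (43.2 RPKM) and ACTA2 (21.2 RPKM) were listed above the pCCNE1 library. Defining fibroblast genes were at or near 0 in both libraries, with DCN at 0.271 and 0 RPKM, FAP at 0.0535 and 0 RPKM, COL1A1 at 0.363 and 0.163 RPKM and THY1 as given above. The summed RPKM of the list was 122 with pCCNE1 and 151 in the control, of which SPARC alone made 59.6 and 110 RPKM. Their part in the higher values of CDH2 and the other mesenchymal genes was not tested. Of 13 blood genes none was kept, and of 12 endothelial genes 3 were.

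Signalling lists had medians above that of the pair as deposited, with few members past 1. Little-read members tend to lie above the pair's median, as given for the fibroblast list. Of all genes, 0.875% were higher and 4.9% lower by at least 1. Of 24 FGF and ERK genes kept, FGFR1 and the early response gene IER3 (2.43 RPKM with pCCNE1 and 0.625 RPKM in the control) were higher by at least 1, and FGF4, the ligand made by naive cells, was lower (9.22 and 22.8 RPKM, −1.22). The classical ERK outputs DUSP6 (0.105 and 0.1 RPKM) and SPRY4 (0.162 and 0.0722 RPKM) stayed near 0 in both. Of 27 WNT genes kept, BAMBI was higher (12.48 and 5.53 RPKM, 1.04) and the receptor FZD5 lower (34.8 and 74.8 RPKM, −1.08). Among 15 BMP and ID genes kept, BAMBI again was past 1, and the receptor BMPR1A (9.31 and 4.77 RPKM), the target MSX2 (1.96 and 0.652 RPKM) and the ligand BMP2 (1.41 and 0.278 RPKM) were higher by less than 1. After equal NM sums the medians were 0.14 for FGF and ERK, 0.22 for WNT and 0.43 for BMP and ID, beside 0.02 for all genes.

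Genes close to cyclin E in function were near or below the pair's median. Of 20 cyclin E and CDK2 genes kept, the CDK inhibitor CDKN1B (6.88 RPKM with pCCNE1, 8.05 RPKM with uCCNE1 and 18.1 RPKM in the control, −1.28) and the CDK-activating kinase CDK7 (9.10, 10.6 and 20.1 RPKM, −1.07) were lower by at least 1, and none was higher. The share of all genes lower by at least 1 was 4.9%. The median of the cyclin E and CDK2 list was −0.50, or −0.10 after equal NM sums. Of 37 DNA replication genes, MCM6, a subunit of the replicative helicase, was lower by at least 1 (16.7 RPKM with pCCNE1 and 44.2 RPKM in the control, −1.35). The list's median was −0.35, or 0.07 after equal NM sums. Of 30 genes of G2 and mitosis, UBE2C was lower (29.4 and 62.9 RPKM), with a list median of −0.50 that became −0.05 after equal NM sums. No member of these lists, CDKN1B, CDK7, MCM6 and UBE2C included, was past 1 in either direction after equal NM sums.

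Replication-dependent histone genes, transcribed in S phase, differed from these lists. Of 28 members 24 lay above the median of the pair, and the list's median was 0.14 as deposited and 0.59 after equal NM sums. None was past 1 as deposited. HIST1H4A had 29.05 RPKM with pCCNE1, 7.74 RPKM with uCCNE1 and 16.04 RPKM in the control, and HIST1H1C had 96.0, 49.5 and 145 RPKM. Histones made up 2.24% of the summed RPKM in the pCCNE1 library and 1.35% in the control. After equal NM sums the list's median was −0.68 with uCCNE1 in 5iLA, −0.03 with pCCNE1 in primed H1 and −1.18 with pCCNE1 in t2iGo H1, where 27 of 28 lay below the median of their pair. Most of these transcripts have no poly(A) tail and near-identical copies are common among them (HIST1H3D shares all of its 50-base stretches), and the part of library preparation was not tested.

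Among genes with housekeeping roles, most were lower as deposited, as were 76.1% of all genes. Lower by at least 1 were 4.9% of all genes. All 44 respiratory chain genes kept were lower, 2 of them by at least 1 (ATP5G1, −1.18, and NDUFB5, −1.01), with a median of −0.60 that became −0.16 after equal NM sums. Of 84 cytosolic ribosomal protein genes 81 were lower, 3 of them by at least 1, with RPL21 (−1.17) and RPS27 (−1.15) among these, and the medians were −0.56 and −0.11. RPL21 shares 57.4% and RPS27 66.5% of their 50-base stretches with other annotated genes, so both values are uncertain. None of either list was past 1 after equal NM sums. Of 21 ER chaperone and unfolded protein response genes, MANF was lower by at least 1 (21.4 RPKM with pCCNE1 and 46.9 RPKM in the control). The median was −0.52, or −0.13 after equal NM sums. Glycolysis genes were split, since the brain-type isozymes ALDOC (2.51 and 10.98 RPKM, −1.77) and ENO2 (10.3 and 33.5 RPKM, −1.61) were lower and the phosphofructokinase PFKP was higher (19.6 and 9.11 RPKM, 1.02). The median over 28 genes was −0.25, or 0.12 after equal NM sums. Of 38 Mediator and enhancer genes kept, MED30 was lower by at least 1 (2.37 and 6.07 RPKM, −1.07) and none was higher. The median was −0.28, next to that of all genes, or 0.11 after equal NM sums. No member of the ER chaperone or the Mediator list was past 1 after equal NM sums.

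Interferon-induced and HLA genes held 4 of 20 kept members that were lower by at least 1 as deposited, beside 4.9% of all genes, and none that was higher. The counts were 2 lower and 1 higher after equal NM sums, beside 1.44% and 2.43% of all genes. BST2 was listed at 0 with pCCNE1, 0.216 RPKM with uCCNE1 and 2.77 RPKM in the control. HLA-C had 2.31 RPKM with pCCNE1 and 7.60 RPKM in the control (−1.38), HLA-E had 5.69 and 14.8 RPKM (−1.24), and HLA-B had 0.321 and 1.82 RPKM (−1.09). The list's median was −0.45 as deposited and −0.19 after equal NM sums. Of 17 germline-linked genes kept, 4 were lower by at least 1 as deposited and 1 after equal NM sums, beside 4.9% and 1.44% of all genes. The list's medians were −0.48 and −0.02. The 4 were the piRNA pathway gene TDRD1 (2.60 RPKM with pCCNE1, 10.9 RPKM with uCCNE1 and 10.8 RPKM in the control, −1.71), the meiotic genes SYCP3 (26.5 RPKM with pCCNE1 and 70.3 RPKM in the control) and STAG3 (4.57 and 12.8 RPKM), and NLRP7 (293 and 628 RPKM). TDRD1 was the one among them that kept its control level with uCCNE1.

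Transcripts that start in or read through the endogenous retrovirus HERVH, a primate element active in human pluripotent cells, were higher. ESRG had 21.4 RPKM with pCCNE1, 14.7 RPKM with uCCNE1 and 12.52 RPKM in the control (0.73), ABHD12B had 22.4, 13.7 and 13.1 RPKM (0.73), SCGB3A2 had 50.1, 29.7 and 32.7 RPKM (0.60) and HHLA1 had 11.1, 7.34 and 7.87 RPKM (0.44). These are all 4 of the list's members in the table. Their median was 0.66 as deposited and 1.11 after equal NM sums, with 3 higher by at least 1 on the scaled values, beside 2.43% of all genes. The same medians were 0.50 with uCCNE1, −0.05 with pCCNE1 in primed H1 and −0.32 with pCCNE1 in t2iGo H1. The imprinted RNA H19 was also higher, at 24.7 RPKM with pCCNE1, 16.3 RPKM with uCCNE1 and 7.89 RPKM in the control (1.53).

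**Figure D5:**
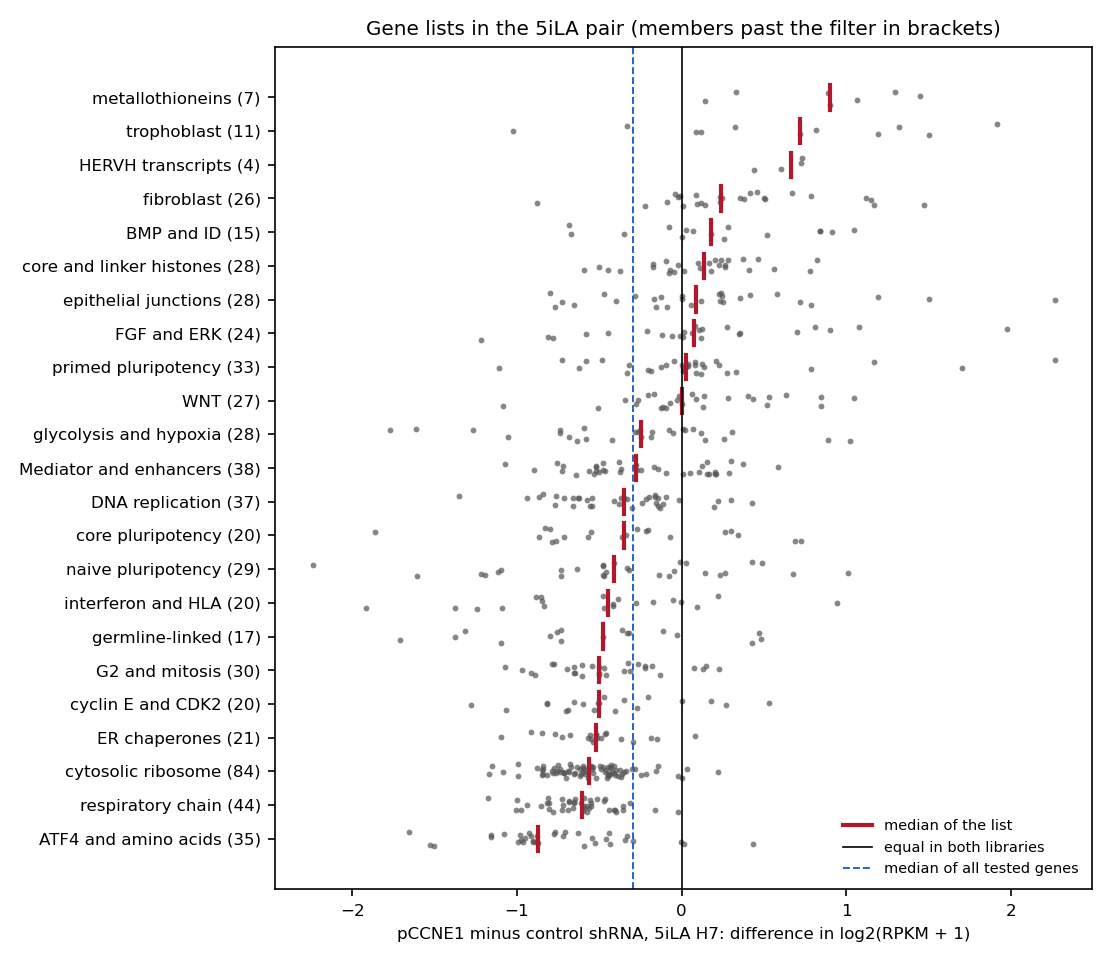
Differences in log2(RPKM + 1), pCCNE1 minus control shRNA in 5iLA H7, for the kept members of 23 gene lists, with each list's median as a bar. The metallothioneins (0.90) and trophoblast genes (0.72) have the highest medians and the amino acid and ATF4 genes (−0.87) the lowest, while the median of all genes is −0.30.

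Most of the small RNA entries kept were lower in the pCCNE1 library. Of 1631 such entries 124 were kept, with a median of −1.28 as deposited and −0.82 after equal NM sums. As deposited, 69 were lower and 7 higher by at least 1, beside 4.9% and 0.875% of all genes. Of 73 H/ACA small nucleolar RNAs kept, which guide pseudouridylation of ribosomal RNA, 45 were lower and 5 higher. Their median was −1.60 as deposited and −1.14 after equal NM sums. Of 255 C/D box small nucleolar RNAs, which guide ribose methylation, 9 were kept, and all 9 were lower by at least 1. An entry near 0 in most libraries can pass the filter through a high value in the 5iLA control. The counts of small RNAs lower than that control are thus tied to the filter, and no conclusion is drawn from them. SNORA16A was listed at 0 with pCCNE1 against 54.4 RPKM with uCCNE1 and 189 RPKM in the control, and SNORD17 had 274, 381 and 655 RPKM. The entries are short and some lie within introns of host genes, and how such reads were counted is not given in the sources used here. A list of 15 small nucleolar RNA host genes, which was not matched to the entries kept, had a median of −0.34 as deposited and 0.05 after equal NM sums. The values of the shRNA libraries also differed between cultures, since small RNAs made up at most 0.521% of the summed RPKM in primed H1.

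A test over the 9 shRNA libraries asked whether the pCCNE1 library in 5iLA departed from what the culture and the shRNA gave additively, with 3 residual degrees of freedom. By limma with Benjamini-Hochberg adjustment, 2 of 12116 genes passed at 0.05 (0.0165%), both lower and both small RNAs, while 939 had an unadjusted p under 0.05, of which 470 were above and 469 below. These were SNAR-C3, with a departure of −4.93, and SNORA14B, with one of −3.86. Both were listed at 0 in the pCCNE1 library, against 26.8 and 17.2 RPKM with uCCNE1 and 32.3 and 10.5 RPKM in the control of 5iLA cells, and at 0 in the other 6 shRNA libraries. They passed the filter through those 2 libraries alone, and the zeros make their residual spread small, so neither p is a measure of replicate error and none is given. Without the uCCNE1 libraries none passed, and without the primed or the t2iGo libraries, with 1 residual degree of freedom, 126 and 150 did. Among protein-coding genes the smallest p above belonged to FAM151A, with a departure of 2.02. FAM151A had at most 0.123 RPKM in the H1 libraries, and it would not have passed the filter without the pCCNE1 5iLA library (12.1 RPKM). The smallest p below belonged to SCG5, a neuroendocrine chaperone (−2.07). TDRD1, with at most 0.0666 RPKM in the H1 libraries, departed by −1.76. Values near 0 in the H1 libraries bear on the residual spread of FAM151A and TDRD1 as well, so only the departures are given. No protein-coding gene was thus shown to respond to the pCCNE1 shRNA differently in 5iLA than in the other cultures, and a p that misses the threshold does not show that the responses were alike.

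Set beside the other pCCNE1 pairs, which had control libraries of their own, most genes past 1 in 5iLA were not past 1 in the same direction. As deposited, 4 of the 106 higher genes were also higher in primed H1 (3.77% of the 5iLA list and 3.57% of the primed list, beside 0.924% of all genes higher in primed H1). Lower there were 5, beside 3.61% of all genes. In t2iGo H1, 8 were also higher (7.55% and 8.99%, beside 0.735%) and 7 were lower (beside 2.72%). Of the 594 lower genes, 29 were also lower in primed H1 (4.88% and 6.64%, beside 3.61%) and 19 were higher (beside 0.924%). In t2iGo H1, 45 were also lower (7.58% and 13.6%, beside 2.72%) and 12 were higher (beside 0.735%). The shares in the opposite direction thus also lay above those of all genes. Of the 15 genes with the largest positive differences in 5iLA, AK4 was past 1 in the same direction in primed H1 (1.46), and PCSK1 (1.73) and ANXA1 (1.98) were in t2iGo H1. Of the 15 with the largest negative differences, GAL was past −1 in t2iGo H1 (−1.32) and none was in primed H1. None of these was past 1 in the opposite direction in either culture. GPRC5A, the first of them, had 0.0730 RPKM with pCCNE1 and 0.0542 RPKM in the control of primed cells.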

How the data were processed

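RNA was sequenced once per group in 9 shRNA libraries and 2 untreated H7 libraries, each group taken from the labels. Per the labels, the extraction kit was RNeasy Mini and the library kit TruSeq RNA, while poly(A) selection and strand are not given there. The authors deposited RPKM values, 1 per RefSeq entry, in 2 tables treated as scaled separately, and TopHat2 2.3.0, Cufflinks 1.2.1 and hg19 are named in the submitters' processing notes. Read totals were estimated, as the totals at which low RPKM values times transcript length (GENCODE, 94.1% of entries matched) came closest to whole reads, and lay between 6.32 and 23.3 M reads in the shRNA libraries. They cover counting error only.

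Differences were pCCNE1 minus control on log2(RPKM + 1), for genes with a mean of at least 1 RPKM over the 9 shRNA libraries, and a difference of at least 1 in size was counted. The departure test was limma 3.58.1 (R 4.3.3) with trend, with culture, shRNA and 1 term for the pCCNE1 5iLA library, and it was tested on simulated data. Genes were named by rule: the 15 largest differences in each direction among NM entries with at least 5 RPKM in the higher library, the 5 smallest departure p in each direction, fixed markers, and for each of 44 lists up to 2 members with the largest differences in each direction; further list members were named after their values were seen. Some genes that the rule names are not reported here. The pair, lists and rule were chosen with earlier results of these data known. Alternatives were the pseudocount, the filter, the scaling, the threshold, libraries left out and, added after seeing the data, centring by length and GC content. Shared sequence was counted in 50-base stretches of GENCODE transcripts, and promoter sequences are RefSeq's.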

Additional observations from a re-analysis of the deposited data

Results flagged for a closer look

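For SNAR-C3, a short noncoding RNA gene on chromosome 19, the pCCNE1 library of 5iLA cells departed from the sum of culture and shRNA by −4.93 on the log2 scale. For SNORA14B, a small nucleolar RNA on chromosome 1, it departed by −3.86. Both were picked out by the test of that difference, but both are listed at 0 in the pCCNE1 library and in all 6 libraries of the other cultures, so the spread behind the test comes from zeros and its p is not given. SNAR-C3 had 26.8 RPKM with uCCNE1 and 32.3 RPKM in the control, and SNORA14B had 17.2 and 10.5 RPKM.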

How the results depend on the processing

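Counts of genes past 1 followed the scaling. The 106 higher and 594 lower genes became 388 and 1428 with a pseudocount of 0.1, 268 and 204 relative to the pair's median, 304 and 237 after quantile normalization, 295 and 174 after equal NM sums, and 235 and 130 after centring by length and GC content (added after seeing the data). A threshold of 2 left 12 and 46, and a mean of at least 5 RPKM left 55 higher genes. The median of the naive-high genes, −0.04 as deposited, changed sign to 0.26, 0.31 and 0.33 relative to the median, after quantile normalization and after equal NM sums, and that of the primed-high genes, −0.07, to 0.23 relative to the median. Less the median of all genes, the primed-high median was 0.23 as deposited but −0.03 after quantile normalization or equal NM sums. In the departure test, 4 genes were lower at a mean of at least 5 RPKM, 3 higher and 1 lower with no filter, 1 lower after quantile normalization, 75 higher and 51 lower without the primed libraries, 55 and 95 without the t2iGo libraries, and 0 lower without the uCCNE1 libraries or among NM entries alone. The cause of these shifts was not tested. Of 43 lists, 30 had a median below 0 as deposited, and 15 of these had one above 0 after equal NM sums. Of 86 named genes past 1, 61 stayed past it after equal NM sums. No paired analysis was possible because the labels carry no replicate numbers, and culture is a term of the departure test. Depth limits genes near 0: 1 read on 2 kilobases was 0.0380 RPKM with pCCNE1 and 0.0302 RPKM in the control.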

Other observations

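Genes of the 8-cell stage, the time of human genome activation, were singled out after their values were seen. Summed over all 22 members, the list had 201 RPKM with pCCNE1 and 413 RPKM in the control. The 2 members that passed the filter were both lower, KHDC1L with 187 RPKM with pCCNE1 and 407 RPKM in the control (−1.11) and H3F3C with 0.159 and 0.252 RPKM (−0.11). KHDC1L, which makes up most of the list's sum, shares 68.8% of its 50-base stretches with other annotated genes, so its value is uncertain. The other 20 did not pass the filter, and none was above 1.98 RPKM with pCCNE1 or 1.39 RPKM in the control. Of these 20, 18 were higher in the pCCNE1 library than in the control and 2 were lower. The share of all genes left out that were higher was not counted, so no conclusion is drawn from this count. Their summed levels were 13.6 RPKM with pCCNE1, 9.62 RPKM with uCCNE1 and 6.29 RPKM in the control. TRIM43 had 1.83, 1.40 and 0.382 RPKM in that order, about 40.5 reads with pCCNE1 and 10.6 in the control. LEUTX, a homeobox gene of that stage, had 0.847 RPKM with pCCNE1, 0 with uCCNE1 and 0.113 RPKM in the control, or 7.49 and 1.25 estimated reads with pCCNE1 and in the control. ZSCAN4 had 0.640, 0.910 and 0.133 RPKM. DUXA, a defining factor, was near 0 in all 3. The TRIM43 copies are alike in sequence, and the values of LEUTX rest on a few reads.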
